A study of Mus musculus with 17 samples.

Results

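RNA polymerase II occupancy was compared between N4bp1 knockout (KO) and wild-type (WT) mouse bone marrow-derived macrophages after 2 h of R837. The comparison holds 4 of the 16 immunoprecipitated libraries, chosen by their labels: 2 KO and 2 WT libraries, all exposed to R837 for 2 h. The other 12 libraries are WT and KO cells that were untreated or given R837 for 4 h or 6 h, 2 for each genotype and time. Every library came from chromatin precipitated with 1 polymerase antibody, and what the submitters deposited is a list of peak summits for each library. The labels give the genotypes only as WT and KO. The type of the N4bp1 allele, the strain, sex and age of the mice, and whether the 2 libraries of a group are separate cultures or animals are not given in the sources used here, so the p-values below rest on library-to-library spread that may be technical in origin.

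R837 (imiquimod) is a ligand of the endosomal receptor TLR7, which signals through MyD88 to the IkB kinases and so to NF-kB, the factor that drives inflammatory cytokine and chemokine genes. N4BP1 is an RNA-binding protein with a NYN-type nuclease domain that restrains cytokine production in macrophages, and caspase-8 cleaves it. RNA polymerase II gathers near the starts of active genes, and on strongly transcribed genes it is also found along the body and past the end, where transcription terminates. Occupancy is therefore a measure of the polymerase on the gene and not of the RNA it yields.

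Each protein-coding gene was given the rank of its best summit within the annotated span and 1 kb on either side, in lists shortened to the same 8394 summits. The rank score is the log2 of the list length plus 1 over that rank, so a score that is 1 higher is a rank 2 times nearer the top, and a gene with no summit in the shortened list has a score of 0. A score of 0 means only that no summit ranked high enough. The scale has no unit of polymerase, and differences below are differences of mean rank scores ± standard error from limma, with Benjamini-Hochberg adjustment over all 8475 genes tested. At 2 h, 5704 of them had a summit in some list and 2207 had one in all 4 lists.

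The deposited 2 h lists held 10769 and 11010 summits for WT and 13825 and 9402 for KO. KO replicate 1 stood apart. In its shortened list 44.8% of summits lay within 1 kb of an annotated gene start, against 31.8% and 29.0% in the WT lists and 28.6% in KO replicate 2. Its summits covered 4984 genes, against 3645 and 3449 in WT and 3277 in KO replicate 2. Between 48.9% and 50.4% of its summits lay within 500 bp of a summit of an untreated library, whereas the other 3 lists shared 32.9% to 37.8%. By an exact two-sided permutation test the genotypes did not differ in genes covered (p = 1), and 2 libraries against 2 cannot give a p below 0.333. Results that rest on KO replicate 1 are given without it.

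**Figure D1:**
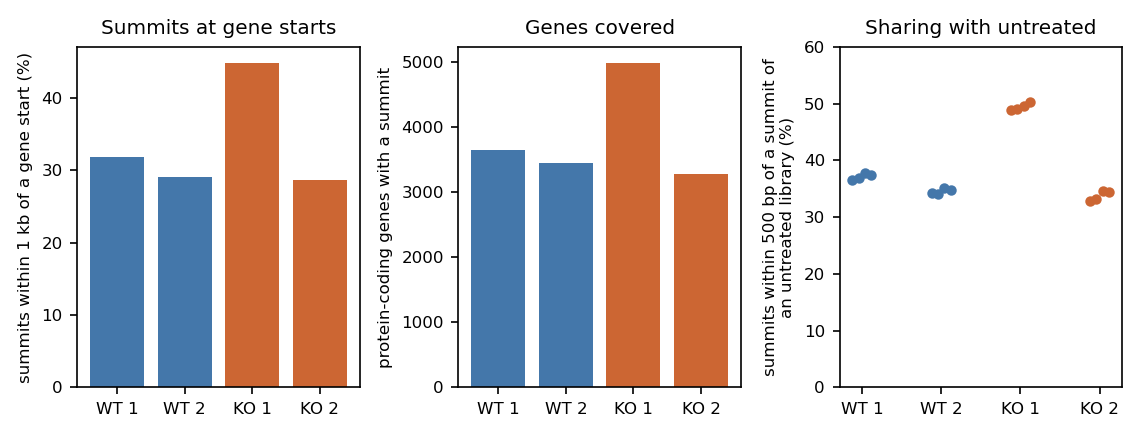
Properties of the shortened 2 h lists: the percentage of summits within 1 kb of a gene start, the number of protein-coding genes with a summit, and the percentage of summits within 500 bp of a summit of each of the untreated libraries (1 point each). KO replicate 1 is the highest library in every panel, and KO replicate 2 lies close to the WT libraries.

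The cells carried polymerase on macrophage genes. Of 30 macrophage identity genes, 27 had a summit in some deposited 2 h list and 21 in all 4. No summit was found on any marker of neutrophils, mast cells and basophils, erythroid cells or fibroblasts. Markers of T and NK cells had a summed rank score of 0 in all 4 shortened lists. In the deposited lists 2 of those 12 markers, Cd3d and Lck, and the B cell marker Cd79a had a summit. These lay in KO replicate 1 alone, at ranks 12972, 11781 and 11623. In the shortened lists Blnk alone of the B cell markers contributed, with a summed score of 0.7 and 0 in WT and 2.9 and 0.6 in KO. Of the dendritic cell markers Xcr1 alone did, with 4.2 to 5.0 in WT and 0.4 to 3.0 in KO, and in 3 of the 4 libraries its best summit is the one of the neighbouring gene Fyco1. N4bp1 itself kept polymerase in the KO libraries, with rank scores of 1.77 and 3.13 in WT and 2.40 and 3.96 in KO, a difference of 0.73 ± 0.66 (limma, adjusted p = 1). A summit near the gene's start does not report on a deletion elsewhere in the gene, so this does not check the genotype.

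At 2 h the genotypes differed at few genes. One gene was higher in KO (0.0118% of 8475) and 5 were lower (0.059%), and 437 genes (5.16%) had an unadjusted p under 0.05. The 5 lower genes stand for 4 places, because Art3 and Cxcl10 share their summits, and 2 of them, Arhgef17 and Sytl3, met the presence filter only through the WT libraries in which they are high. The KO scores did not overlap the WT scores and were higher at 860 genes (10.1%) and lower at 606 (7.15%). These shares take in 2772 genes whose means were equal, at which the groups cannot be apart. They are therefore not a like baseline for a list whose members mostly have a summit. The median difference over all genes was 0.00, with 3531 genes (41.7%) above WT and 2172 (25.6%) below. That excess of higher genes turned round without KO replicate 1, when 1815 genes lay above WT and 2844 below. Leaving out KO replicate 1 also gave 11 genes called higher and 1 lower, and leaving out KO replicate 2 gave 49 and 7. Without WT replicate 1 the counts were 3 and 15, and without WT replicate 2 they were 3 and 10.

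The sequences below are the 250 bases before the annotated start of 4 genes on which the account turns. Il4ra had the largest called difference, and the best summit of Cxcl10 was below the shortened list in KO. The scores of Cxcl1, a chemokine gene, were higher in both KO libraries at 2 h and later, and those of Fcgr1 were lower. Neither Cxcl1 nor Fcgr1 passed at 2 h (limma, adjusted p = 0.754 and 0.272). The sequences come from RefSeq (GRCm38.p6), 5′ to 3′ on the gene's strand. Matches to an NF-kB (kappaB) motif or an interferon-response motif (GAAANNGAAA, or TTTCNNTTTC on the other strand) are in capitals.
Il4ra, chr7:125552021-125552270, plus strand: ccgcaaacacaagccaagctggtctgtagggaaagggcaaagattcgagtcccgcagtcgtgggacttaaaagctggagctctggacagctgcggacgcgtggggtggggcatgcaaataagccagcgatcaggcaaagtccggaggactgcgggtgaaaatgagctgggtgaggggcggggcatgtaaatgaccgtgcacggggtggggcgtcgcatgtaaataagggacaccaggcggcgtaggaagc
Cxcl10, chr5:92348890-92349139, minus strand: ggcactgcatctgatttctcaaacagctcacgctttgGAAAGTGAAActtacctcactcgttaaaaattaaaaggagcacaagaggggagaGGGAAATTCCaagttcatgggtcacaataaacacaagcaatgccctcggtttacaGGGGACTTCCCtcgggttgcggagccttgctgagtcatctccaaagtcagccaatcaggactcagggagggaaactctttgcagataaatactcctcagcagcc
Cxcl1, chr5:90890995-90891244, plus strand: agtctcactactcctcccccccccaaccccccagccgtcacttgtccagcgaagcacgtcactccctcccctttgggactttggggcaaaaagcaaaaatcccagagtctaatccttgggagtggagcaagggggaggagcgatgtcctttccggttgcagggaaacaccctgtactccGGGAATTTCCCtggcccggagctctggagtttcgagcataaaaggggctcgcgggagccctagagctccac
Fcgr1, chr3:96293970-96294219, minus strand: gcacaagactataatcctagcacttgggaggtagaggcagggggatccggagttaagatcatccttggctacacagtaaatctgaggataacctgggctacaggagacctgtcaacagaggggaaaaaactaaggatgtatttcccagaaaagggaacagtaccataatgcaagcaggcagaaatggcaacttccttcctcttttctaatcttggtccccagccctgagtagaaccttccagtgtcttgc
Cxcl10 held an interferon-response match from base 213 to base 204 before the start, and kappaB matches at bases 159 to 150 and 104 to 94, the second of these read on both strands in overlapping frames. Cxcl1 held a kappaB match at bases 71 to 61, also read on both strands. The Il4ra and Fcgr1 windows held neither motif, nor did those of Acod1 and Casp8ap2, which were searched as well and are not printed. This says only that these letters are absent from these windows. Of 32851 start windows of the same length, 7.25% held a kappaB match and 2.98% an interferon-response match. These matches are a description of the sequence and were not tested against the polymerase values.

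Il4ra, on chromosome 7 (125552271 to 125579474), encodes the receptor chain shared by the interleukin-4 and interleukin-13 receptors, and it had the largest called difference. Its best summit ranked 27 in both WT lists, a rank score of 8.28, and ranked 815 and 312 in KO, scores of 3.36 and 4.75. The WT libraries were identical and both KO libraries lay far below them, a difference of -4.22 ± 0.61 (limma, adjusted p = 0.0261). All 4 best summits lay 401 to 958 bp past the annotated end of the gene. When summits within the annotated span alone were used the difference was -3.23 and did not pass (limma, adjusted p = 0.283), and when summits were counted in place of ranked the sign reversed to 1.27 (limma, adjusted p = 0.00995). Leaving out 1 library gave the same direction and an adjusted p of 0.0643 (WT replicate 1), 0.0659 (WT replicate 2) and 0.123 (KO replicate 1). Among the genes called in the fit of all 16 libraries, Il4ra alone was also called when the 4 libraries at 2 h were fitted by themselves.

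Cxcl10 encodes a chemokine that is induced by interferon and NF-kB and attracts T cells. Its best summit ranked 1432 and 640 in WT, scores of 2.55 and 3.71, and was below the shortened list in both KO libraries. In the deposited lists the KO summits ranked 12571 and 8844. The difference was -3.13 ± 0.47 (limma, adjusted p = 0.0261), and it did not pass with the lists as deposited (adjusted p = 0.132), with the replicate block (0.0534) or without KO replicate 1 (0.123).

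The other called genes had low scores. Arhgef17, which encodes a guanine nucleotide exchange factor, scored 2.20 and 2.18 in WT and 0 in both KO lists, a difference of -2.19 ± 0.24 (limma, adjusted p = 0.00559). Its summit lay 571 and 788 bp outside the annotated gene. Widening the window to 3 kb brought other summits in and the difference became -0.10. Arhgef17 did not pass with the lists as deposited (limma, adjusted p = 0.203) or with counts (0.147). Of the 12 libraries of other times it scored above 0 in 1, KO 6 h replicate 2 (0.64). Sytl3, a synaptotagmin-like protein of vesicle traffic, scored 1.47 and 0.79 in WT and 0 in KO and in all 12 libraries of other times. Its call was lost with the replicate block and on leaving out any 1 of the 2 h libraries, and it is given as a description only. Gpr132, a G protein-coupled receptor of macrophages, scored 0 and 0.05 in WT and 0.94 and 1.01 in KO (0.95 ± 0.12, limma, adjusted p = 0.00922), and its KO summits lay at different places, 124 and 9897 bp downstream of the start. The Gpr132 call was lost with the lists as deposited (limma, adjusted p = 0.505), with the best 5000 summits (0.518) and with counts (0.739). It was also lost when 2 or more of the 2 h lists had to hold a summit (0.126), and in the 2 h libraries alone (0.892). The spread that limma gives these 3 genes is drawn from all 16 libraries, in most of which they score 0. When the test was kept to genes present in 8 or more of the 16 lists, a setting chosen after seeing the data, Il4ra was the 1 gene called.

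**Figure D2:**
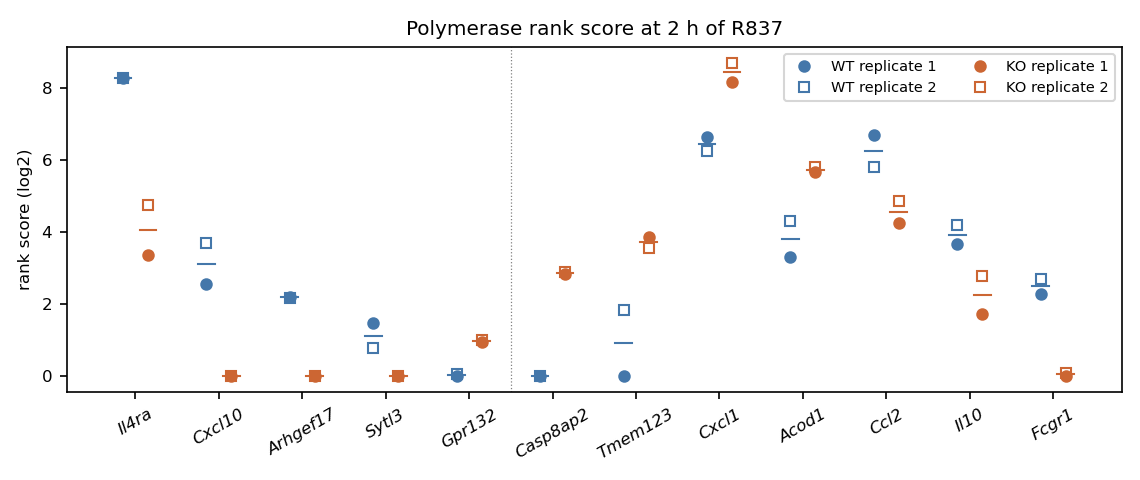
Rank score (log2) of 12 genes in the 2 h libraries, with a horizontal line at each group's mean. The 5 genes left of the dotted line passed the adjusted threshold and the 7 to its right did not. Il4ra lies at 8.28 in both WT libraries and at 3.36 and 4.75 in KO.

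Beyond the called genes, the largest differences whose groups did not overlap did not pass the adjusted threshold. Higher in KO were Casp8ap2, which encodes a caspase-8-associated protein of histone mRNA processing (0 and 0 in WT, 2.85 and 2.89 in KO, 2.87 ± 0.58), and Tmem123, a membrane receptor gene (0 and 1.84 in WT, 3.88 and 3.57 in KO, 2.80 ± 0.52). Cisd3 (its summits shared with Mllt6), Trap1, Grcc10, Tmem39a, Mtdh (shared with Gm41291) and Tardbp differed by 2.73 to 3.08. Lower were Tlcd2 (-3.64 ± 1.09), the histone gene H2ac19, which shares its summits with H3c15 (-3.04 ± 0.65), and Hspb9 (-2.99 ± 0.65). In 4 other cases the summit lay nearest to a neighbour, which differed less. Ppm1g, whose best summit ranked 2885 and 5111 in WT and 227 and 326 in KO, differed by more than any of these higher genes without passing (3.82, limma, adjusted p = 0.06), and Zfp513, nearest to that summit, differed by 0.78. Cd2bp2, Ppp1r10 and Fyco1, nearest to the summits of Tbc1d10b, Mrps18b and Xcr1, differed by -1.85, -0.54 and -1.05. Apart from Ppm1g, the genes given with a difference here had adjusted p-values from 0.102 to 1 (limma).

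Among the 30 genes of the TLR7, NF-kB and cytokine panel, 29 could be tested and none passed. The groups did not overlap for 3 that were higher in KO and 5 that were lower, where 10.1% and 7.15% of all genes did so. Tnf and Nfkbia, the genes for tumour necrosis factor and the NF-kB inhibitor IkB-alpha, held the top ranks in both genotypes. Tnf scored 12.04 in both WT libraries and 12.04 and 13.04 in KO, and Nfkbia scored 13.04 and 11.45 in each genotype. Il6, Il23a, Csf3 and Tlr7 had no summit in the shortened or the deposited 2 h lists, so polymerase there was not detectable in these lists at either length.

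No chemokine gene of the panel passed. Cxcl1, which encodes a neutrophil-attracting chemokine, ranked 84 and 109 in WT and 29 and 20 in KO, scores of 6.64 and 6.27 against 8.18 and 8.71. Both KO libraries were above both WT libraries, by 1.99 ± 0.72, which did not pass (limma, adjusted p = 0.754). Its neighbour Cxcl2 scored 7.42 and 7.79 in WT and 6.39 and 8.33 in KO and overlapped. Ccl2, which encodes a monocyte-attracting chemokine, scored 6.71 and 5.82 in WT and 4.25 and 4.88 in KO, a difference of -1.70 ± 0.75 (limma, adjusted p = 0.925). Ccl5 scored 7.48 and 6.58 in WT and 6.99 and 8.18 in KO.

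Of 19 secondary cytokine and effector genes tested, 6 lay above WT, 6 below and 7 were equal, with 2 apart in each direction (10.5%, against 10.1% higher and 7.15% lower of all genes). Il10, a member, for the anti-inflammatory cytokine interleukin-10, scored 3.68 and 4.19 in WT and 1.74 and 2.79 in KO (-1.67 ± 0.70, limma, adjusted p = 0.885). Il1b, a panel gene, scored 2.87 and 3.58 in WT and 0.55 and 2.11 in KO (-1.89 ± 0.85, limma, adjusted p = 0.935). Acod1, a member whose enzyme makes itaconate, scored 3.32 and 4.32 in WT and 5.66 and 5.82 in KO (1.92 ± 0.74, limma, adjusted p = 0.863). In each of these 3 genes the groups did not overlap, and none of the 3 passed.

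Gene lists were described by counts and medians beside the same values over all genes. The latter include genes at 0 in every 2 h list, which cannot be apart, so the shares apart are not like for like. Of the 17 lists, 7 had a median above 0, 6 below and 4 at 0. Cxcl10, in the interferon list, was the 1 list member called in any of them. For NF-kB primary response genes the median difference was -0.10, with 12 of 31 tested above WT and 17 below. Of the 31, 3 were apart and higher (9.68% against 10.1% of all genes) and 8 apart and lower (25.8% against 7.15%). In each 2 h list 29 or 30 of them had a summit. Plaur, the urokinase receptor gene, was among those higher (0.19 and 1.33 in WT, 2.66 and 2.15 in KO). Their summed scores, 182.2 and 182.9 in WT and 179.4 and 181.2 in KO, lay close together. The median was 0.00 without WT replicate 1 and -0.22 without KO replicate 1.

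Negative feedback regulators, which dampen TLR signalling, had a median of -0.21, with 9 of 22 tested above WT and 12 below. Of the 22, 2 were apart and higher (9.09% against 10.1% of all genes) and 9 apart and lower (40.9% against 7.15%). Between 19 and 22 of them had a summit in each 2 h list, so the shares of all genes are not a like baseline. Socs3, which inhibits cytokine receptor signalling, scored 9.58 and 10.71 in WT and 9.23 and 8.95 in KO. Tnip3, which encodes a partner of the ubiquitin editor A20, scored 7.91 and 7.39 in WT and 5.33 and 6.89 in KO. Tnfaip3, the A20 gene, did not follow, with 6.73 and 7.04 in WT and 6.75 and 6.83 in KO, and Atf3, a repressor of TLR targets, was higher in KO (0.92 and 0.33 against 2.70 and 2.27). Without KO replicate 1 the list median was -0.67, and without WT replicate 1 it was -0.40.

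Of 24 interferon-stimulated genes tested, none lay above WT, 16 lay below and 8 were at 0 in both genotypes, with a median of -0.20. Their summed scores were 26.8 and 34.2 in WT and 13.4 and 18.6 in KO. Gbp5, a guanylate-binding protein of cell-autonomous defence, scored 3.22 and 3.66 in WT and 1.51 and 1.78 in KO, and Trim25, a ubiquitin ligase of RNA sensing, scored 2.40 and 4.14 in WT and 1.49 and 1.28 in KO. Besides Cxcl10, only those 2 had groups that did not overlap (3 of 24, 12.5% against 7.15%). Without WT replicate 1, 5 members lay above and 8 below, and without KO replicate 2 the counts were 5 and 11. The 9 tested antigen presentation genes had a median of -0.78, with 1 above WT and 8 below, but without WT replicate 1 the median was -0.31, with 3 above and 6 below. Among them Nlrc5, the transactivator of MHC class I genes, scored 0.98 and 1.88 in WT and 0 in both KO libraries. The exception was H2-K1, a class I heavy chain (6.54 and 6.31 in WT, 8.04 and 7.58 in KO).

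Genes of the TLR7, IKK and caspase-8 pathway had a median of 0.17, with 20 of 33 above WT (60.6% against 41.7% of all genes) and 11 below (33.3% against 25.6%). Of the 33, 7 were apart and higher (21.2% against 10.1%) and 2 apart and lower (6.06% against 7.15%). Tank, an adaptor of the IKK-related kinases, scored 0 and 1.52 in WT and 2.33 and 3.37 in KO, Birc2, which encodes the ubiquitin ligase cIAP1, 2.27 and 2.76 in WT and 4.65 and 3.38 in KO, and Unc93b1, whose product carries TLR7 to the endosome, 3.67 and 5.81 in WT and 2.55 and 3.68 in KO. Unc93b1, the second of these by size, thus lay lower in KO with groups that overlapped. Cflar, the caspase-8 inhibitor gene of the panel, scored 5.78 and 5.84 in WT and 6.61 and 6.45 in KO. Without KO replicate 1 the balance turned, with 10 members above and 18 below, and without WT replicate 1 it was even, with 16 and 15. Genes of oxidative phosphorylation, with 17 of 23 above and 2 below, fell to 5 above and 5 below without KO replicate 1. Ribosomal protein genes, with 25 of 32 above and 7 below, kept 21 above and 11 below without KO replicate 1.

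Macrophage identity genes had a median of -0.34, with 8 of 29 above WT and 18 below. Of the 29, 2 were apart and higher (6.9% against 10.1% of all genes) and 9 apart and lower (31% against 7.15%). Fcgr1, the high-affinity IgG receptor gene, scored 2.29 and 2.70 in WT and 0 and 0.10 in KO (-2.44 ± 0.60, limma, adjusted p = 0.272). Aif1, for an actin-binding protein of activated macrophages, went the other way (ranks of 4811 and 7826 in WT and 1075 and 1053 in KO, 2.53 ± 0.60, limma, adjusted p = 0.253). Without KO replicate 1 the counts were 6 above and 20 below. Among the lysosome genes, which lay 8 above and 8 below (4 and 10 without KO replicate 1), Ctsa, the protective protein cathepsin A gene, differed most (4.01 and 4.45 in WT, 1.63 and 1.81 in KO, -2.51 ± 0.60, limma, adjusted p = 0.253). Of the NYN domain and CCCH ribonuclease genes, to which N4bp1 belongs, Zc3h12d had the largest difference (2.99 and 3.72 in WT, 1.93 and 1.49 in KO).

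**Figure D3:**
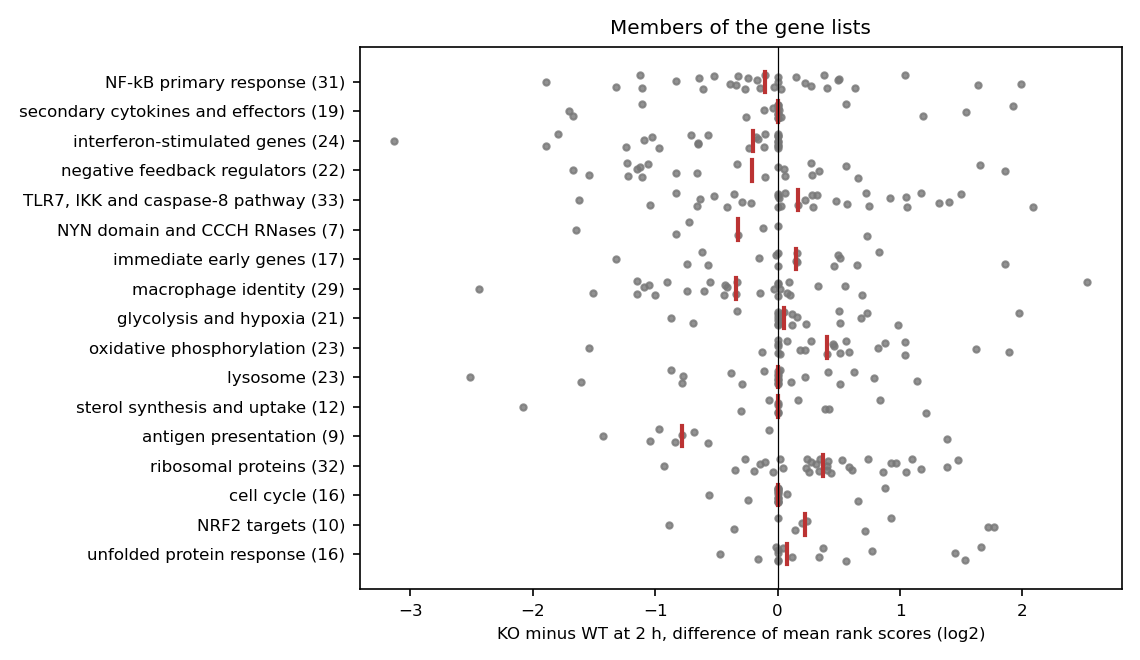
Difference of mean rank scores (log2), KO minus WT at 2 h, for each tested member (grey points) of 17 gene lists, with the list median as a red bar and the number tested in brackets. The interferon-stimulated genes have no member above 0, and the ribosomal protein genes have 25 of 32 above 0.

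The differences at 4 h and 6 h are set beside those at 2 h as a description, since the genes given here were chosen with their later values known and the spread in limma comes from all 16 libraries. Fcgr1 was lower in KO at both of those times as well, by -5.04 at 4 h (limma, adjusted p = 0.00164) and -3.81 at 6 h (0.00907), where 0.401% and 1.32% of all genes were called either way. Il4ra was lower by -3.38 at 4 h (limma, adjusted p = 0.0273) and by -2.21 at 6 h, where it did not pass (0.110). Cxcl1 was higher by 3.32 at 4 h, which did not pass (limma, adjusted p = 0.0805), and by 7.17 at 6 h, which did (0.000514). Cxcl10 had scores of 0 to 1.03 at those times in either genotype. In untreated cells none of these genes differed by more than 0.24 in size.

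Of the 606 genes that were apart and lower at 2 h, 42 (6.93%) were also apart and lower at 4 h and at 6 h, and of all 8475 genes 120 (1.42%) were so at both later times. Of the 860 that were apart and higher, 70 (8.14%) were so at both later times, against 466 (5.50%) of all genes. All genes include those with no summit in these lists, which cannot be apart, so the shares are not like for like. In untreated cells 75 (12.4%) of the lower genes were apart and lower, against 13.7% of all genes. Of the higher genes 150 (17.4%) were apart and higher there, against 14.8%. The 70 include Cxcl1, Acod1, the signalling adaptor gene Traf1 and Tnip1, and the 42 include Fcgr1, Il4ra, Zc3h12d, Ccl2 and Il10. These names were chosen after their values were seen.

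**Figure D4:**
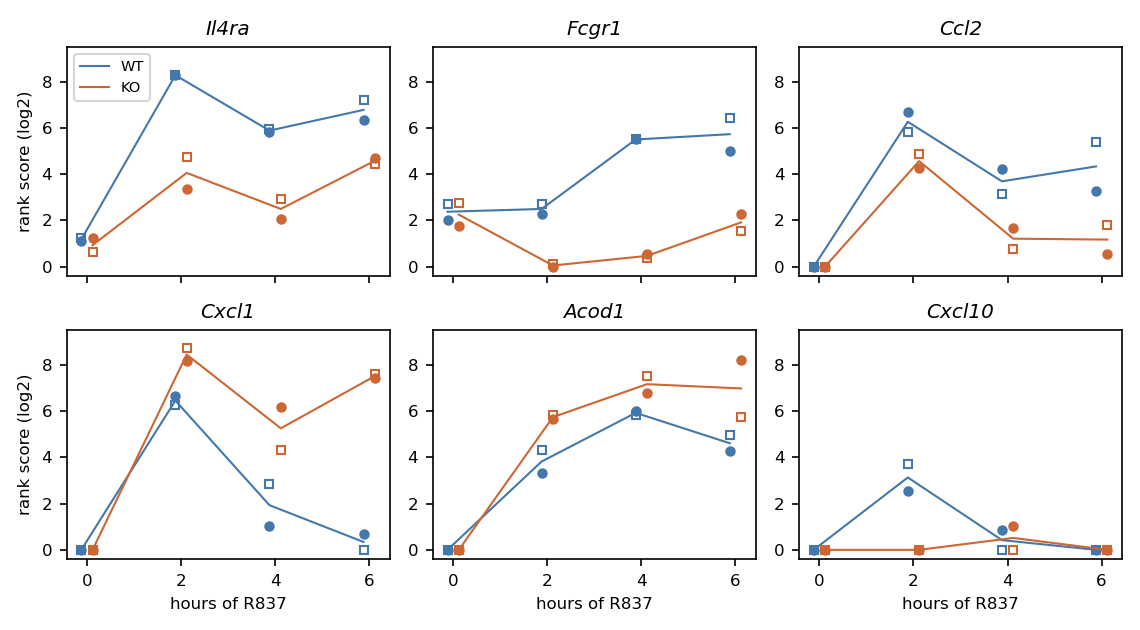
Rank score (log2) of 6 genes by hours of R837, with filled circles for replicate 1, open squares for replicate 2 and lines through the group means; 0 h is untreated. Il4ra and Ccl2 are lower in KO at 2 h, 4 h and 6 h, Fcgr1 is lower at the same times but not when untreated, and Cxcl1 is higher in KO at all 3 times.

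The difference between the genotypes at 2 h was set against that in untreated cells in the same fit. No gene passed by limma with Benjamini-Hochberg adjustment, while 622 (7.34%) had an unadjusted p under 0.05. Against 4 h, 1 gene passed (0.0118%, with 4.47% at an unadjusted p under 0.05), and against 6 h, 8 did (0.0944%, with 7.16%). Of these 9, 5 had no summit in any 2 h list, so they differed at the later time alone. Genes that were higher at 4 h and 6 h than in untreated cells, over both genotypes, numbered 552 (6.51% of all genes, limma, adjusted p). Of these, 204 lay above WT at 2 h and 247 below. The groups were apart and higher at 62 (11.2% against 10.1% of all genes) and apart and lower at 111 (20.1% against 7.15%). Between 389 and 400 of the 552 had a summit in each 2 h list, against 3264 to 4953 of all 8475 genes. Of 2232 genes (26.3%) that were lower at the later times, 859 lay above WT at 2 h and 568 below. Without KO replicate 1 the first counts were 187 and 251 and the second 426 and 735.

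Summits of the shortened 2 h lists were also joined within 500 bp into 14130 regions. The 8078 regions with a summit in 2 or more of the 4 lists were tested. Of these, 189 (2.34%) were called higher in KO and 348 (4.31%) lower. The calls rest on the other libraries for their spread, while the presence filter counted the 2 h lists alone. Of the called regions, 56 of the 189 (29.6%) and 139 of the 348 (39.9%) had no summit in any of the 12 libraries of other times. Over all 8078 regions 960 (11.9%) had none there. For such regions the other libraries add only zeros to the spread. A fit of the 2 h libraries alone called 4 and 5, and regions present in 8 or more of the 16 lists gave 8 and 8, so the counts are given as a description. Of the 205 genes with a region called lower, 176 (85.9%) had a summit in all 4 of the 2 h lists. Of the 127 genes with a region called higher, 104 (81.9%) had one in all 4. A called region requires summits, and over all 8475 genes 2207 had a summit in all 4 lists. Picalm, an endocytosis gene, held the most called regions, 2 higher and 19 lower of 44, while its own rank score differed by -0.59 ± 0.67 (limma, adjusted p = 1).

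Of the 9 regions called from the 2 h libraries alone, 7 lay at 4 places with a highly ranked gene, 3 of which held 1 region of each direction, and 2 lay within 1 kb of no protein-coding gene. At Dusp2, which encodes a MAP kinase phosphatase, the KO summits lay 51 bp after the annotated start and the WT summits 1675 bp after it, and the gene ranked 48 and 42 in WT and 35 and 53 in KO. At Ccl4, a macrophage inflammatory protein gene, the WT summits lay 694 bp outside the high-coordinate edge of the annotated span and the KO summits 1924 bp inside it, and the gene ranked 7 and 11 in WT and 15 and 8 in KO, by the summit of its neighbour Ccl3 in 1 library of each genotype. At Cxcl16, a membrane-bound chemokine gene that overlaps Zmynd15, the summits lay 1187 bp (WT) and 379 bp (KO) inside the high-coordinate edge. The tables used here give no strand for Ccl4 and Cxcl16, so these edges are not called starts or ends. At Nfkbia a KO region lay 929 bp outside the gene, on the side of its 3′ end.

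The best summit's place along the gene was then read in the 1841 genes with a strand and a summit in all 4 lists. In WT 20.3% of these summits in each library lay past 75% of the gene's length or beyond its end, in KO replicate 1 13.4% and in KO replicate 2 19.8%. At 22 genes (1.2%) both KO summits lay in the first 25% of the gene and both WT summits past 75% of it, and at 5 (0.272%) the reverse. The 22 include Il12b, which encodes the interleukin-12 p40 chain, Clec4e, a pattern recognition receptor gene, Fosl2, an AP-1 subunit gene, and Sqstm1, the autophagy receptor p62, whose ranks were 81 and 87 in WT and 64 and 84 in KO. The 5 include Gbp5. Summits up to 1 kb outside a gene were taken, so an end can hold a summit shared with a neighbour. Zfp513, among the 22, shares its KO summits (ranks 227 and 326) with Ppm1g, among the 5, and its WT summits with Snx17. The counts are therefore not all separate summits or shifts within a gene. This measure was added after the regions had been seen, has no test, and moves with KO replicate 1, and the part of that library in it was not tested.

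**Figure D5:**
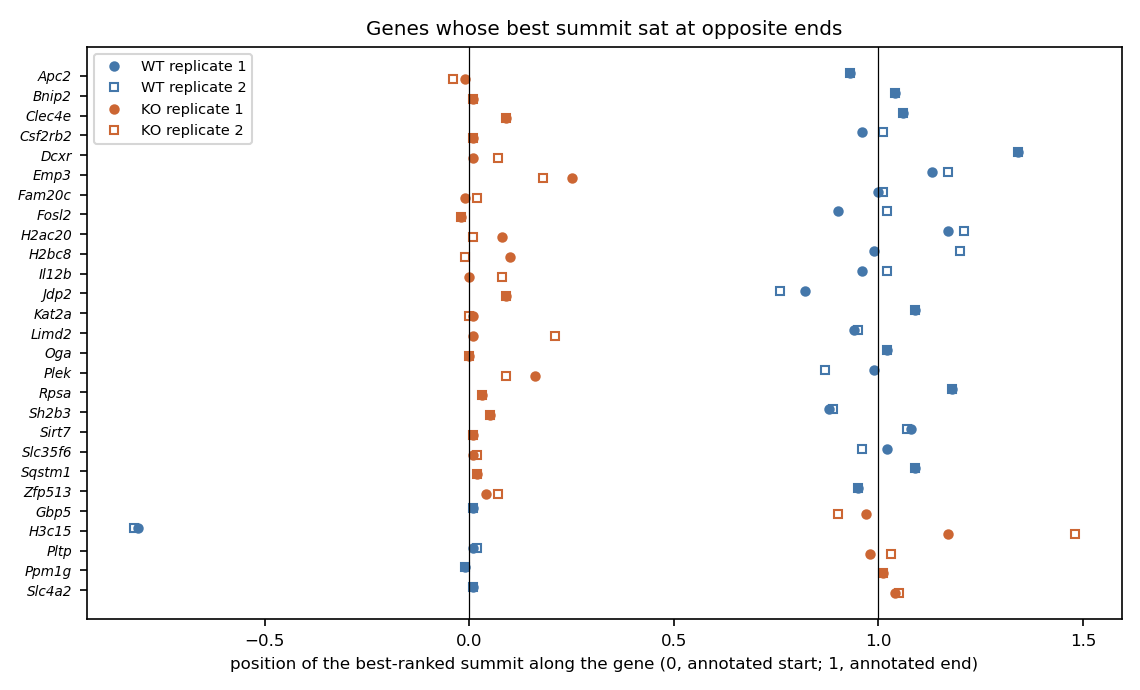
Position of the best-ranked summit along the 27 genes where it lay in the first 25% in both libraries of one genotype and past 75% in both of the other, from 0 (annotated start) to 1 (annotated end). At 22 genes KO lies at the start and WT at the end, and at 5 the reverse. Summits up to 1 kb outside a gene are included, and some are shared with a neighbour (Zfp513 and Ppm1g share their KO summits).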

How the data were processed

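Chromatin from macrophages was immunoprecipitated with a polymerase II antibody and sequenced as 75 nt single-end reads, per the labels' protocols. Alignment with GSNAP to GRCm38 and peak calling with MACS2 are per the submitters' processing notes, and their versions are not given in the sources used here. The deposited files list 1 summit a line with a score, the authors' −log10 of a p or q value (the files do not say which), which served for ranking inside each list alone; 92.9% of rows (median of the 2 h lists) share their score with another row, and ties were ordered by position. Read depth is not in these files, so list length stands in for it. Genes were the 21887 protein-coding RefSeq genes of GRCm38.p6; 17492 had a start and strand.

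Rank scores of all 16 libraries were fitted together with limma 3.58.1 (R 4.3.3), 1 mean a group, without a replicate block; genes needed a summit in 2 or more of the 16 lists. Genes were named by rule: the 30 panel genes, the 10 largest changes a direction that passed or, failing that, whose groups did not overlap, and the 3 largest of each list. Where genes share a summit the one nearest to it was kept. The members and lists were chosen with earlier results of these data known. The alternatives were list length, gene window, ranking, counting, filters, a replicate block, the 2 h libraries alone and leaving out each library.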

Additional observations from a re-analysis of the deposited data

Results flagged for a closer look

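The genotype difference at 2 h differed from that at a later time at 9 genes, by a test of the difference itself (limma, Benjamini-Hochberg adjusted). In 5 of them, Lcn2, Gm128, Phtf2, Tmem60 and Wfdc18, all 4 libraries at 2 h scored 0, so the value is the later difference with its sign turned. In the last 4 of these a single group scored above 0, through which the gene met the presence filter and against which the spread comes from zeros, so their p-values support nothing. Against 6 h the value for Ccl5 was -4.78 ± 0.79 (adjusted p = 0.0476), since KO exceeded WT by 0.56 at 2 h and by 5.33 at 6 h. Arpc3, an actin-nucleating subunit, gave -4.21 ± 0.64 (adjusted p = 0.0285), and Lcn2, for the iron-binding protein lipocalin-2, gave -2.97 ± 0.43 (adjusted p = 0.0275). Arhgef17 gave -2.51 ± 0.35 (adjusted p = 0.0275), with the difference of -2.19 at 2 h. Outside the WT 2 h libraries, through which it met the presence filter, it scored above 0 in KO 6 h replicate 2 alone (0.64). Its spread too comes mostly from zeros, so its p-value supports nothing. Cks2 gave -1.76 ± 0.27 (adjusted p = 0.0285), Phtf2 and Tmem60, which share their summits, -1.37 ± 0.20 (adjusted p = 0.0275), and Gm128 2.41 ± 0.40 (adjusted p = 0.0476). Cks2 scored 0.63 and 1.11 in WT and 0 in KO at 2 h, and its genotypes differed by 0.0 in untreated cells and at 4 h. These scores lie near 0, so its p-value is given as a description only. Against 4 h, Wfdc18 gave 2.08 ± 0.26 (adjusted p = 0.0188), with KO minus WT at -2.08 at 4 h. These genes were not called in the same way under every alternative: no gene was called against 6 h with the replicate block or with the gene span only.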

How the results depend on the processing

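Called genes at 2 h were 1 higher and 5 lower in KO. They numbered 7 in all (2 higher) with the lists as deposited, 11 (4 higher) with the best 5000 summits and 9 (4 higher) with the span plus 3 kb. With the span only they numbered 6 (2 higher), and with no filter 8 (3 higher). When 2 or more of the 2 h lists had to hold a summit there were 6 (2 higher). With 1 rank per gene 12 were higher and 24 lower, and when summits were counted 39 were higher and 30 lower. The replicate block gave 3 in all, 2 of them lower. The genes called also changed. Of those called in the main fit, the lists as deposited kept Il4ra alone, and counts kept Sytl3 and Il4ra, the latter with its sign reversed. With the 2 h libraries alone, and with genes present in 8 or more of 16 lists (chosen after seeing the data), 0 were higher and 1 lower. Leaving out 1 library gave 3 to 49 higher and 1 to 15 lower. Deviations of the 2 h WT and KO libraries, matched by replicate number, correlated at 0.037. Over the 28 pairs of groups the correlations ran from -0.11 to 0.179. Such values cannot settle whether the replicates were paired.

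The difference from untreated cells called 28 genes with the span only, 172 with counts and 47 with no filter, and 0 to 194 without 1 library. The difference from 4 h called 90 with counts, 11 with no filter, 0 with each other alternative, the replicate block included, and 0 to 17 without 1 library. The difference from 6 h called 4 as deposited, 2 with the best 5000, 0 with the span only, 19 with 1 rank per gene, 129 with counts, 23 with no filter, 0 with the replicate block, 0 in at least 8 lists, and 0 to 261 without 1 library. Regions called higher numbered 309 when joined within 250 bp, 80 within 1000 bp, 286 as deposited, 4 in the 2 h libraries alone and 8 in at least 8 lists, and 150 to 291 without 1 library; lower regions numbered 620, 156, 5 and 8 for joining within 250 bp, within 1000 bp, the 2 h libraries alone and at least 8 lists. The causes of these shifts were not tested.

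Without 1 library the KO minus WT difference ran from -1488 to 2936 deposited summits, -1.79 to 12.3 percentage points for summits within 1 kb of a gene end, -1.84 to 14.3 at starts, -13.4 to 0.485 in gene bodies and -270.0 to 1437 genes covered, and each reversed without KO replicate 1. List medians ran from -0.67 to -0.26 for feedback regulators, -0.72 to -0.26 for NYN and CCCH RNases and -0.98 to -0.31 for antigen presentation. As deposited they were -0.48, -0.83 (RNases) and 0.66 (NRF2 targets), and with 1 rank per gene -0.20 (RNases), 0.25 (sterol genes) and 0.15 (cell cycle).

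Single genes reversed as follows. With counts Il4ra was at 1.27, Cd2bp2, Ppp1r10 and Fyco1 at 0.29, Il10 at 0.77, Ier3 at 0.50, Atf3 at -0.50, H2-K1 at -0.41 and Calr at -0.29; with the span only Cd2bp2 was at 0.89, Socs3 at 1.18 and Rps19 at -0.014. Without 1 library Cxcl2 ran from -1.21 to 0.73, Tnfaip3 from -0.25 to 0.056, Ccl4 from -0.77 to 0.13, Ccl5 from -0.037 to 1.15, Il12b from -0.0040 to 2.38 and N4bp1 from -0.048 to 1.51.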

Other observations

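Some lists repeat each other's score values. Of the values in the deposited list of WT 2 h replicate 1, 96.0% also occur in that of WT untreated replicate 1 but 37.3% in that of WT untreated replicate 2. The summits of the first pair are not the same, since 36.6% of those in the shortened lists lie within 500 bp of each other. Such sharing was not limited to that pair. Of the values of WT 2 h replicate 1, 91.5% also occur in WT 6 h replicate 2. Of those of KO 2 h replicate 1, 94.9% occur in WT 6 h replicate 1.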
